A study of Mus musculus with 3 samples.

Results

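The enzymes that produce NADPH were examined through 10 mouse genes, *G6pdx*, *Pgd*, *Taldo1*, *Tkt*, *Me1*, *Me3*, *Idh1*, *Idh2*, *Nnt*, and *Mthfd1*, out of 21925 protein-coding genes of the GENCODE annotation on mm10. A binding peak was counted for a gene when it touched the gene itself or its flanks of 50 kb. By this rule, 15 of the 5721 peaks of vehicle-treated cells and 8 of the 4025 peaks of cAMP-treated cells belonged to these genes. The peaks came from ChIP-seq, in which DNA crosslinked to a protein is recovered with an antibody and sequenced, here with an antibody against the nuclear receptor Ad4BP/SF-1 (gene *Nr5a1*). The cells were Leydig cells, the androgen-producing cells of the testis, which were isolated on Percoll gradients from the pooled testes of 10 male ICR mice, 9 weeks of age, and were cultured on collagen. No genetic change is named for either group, and the groups differed in that one received vehicle and the other cAMP. Each condition had 1 library and 1 peak list, so there was no replicate error to judge a difference by and no test of the treatment was possible. An input DNA sample of the same cells was not analysed here.

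NADPH is the reducing agent of biosynthesis. Cholesterol synthesis consumes it at several steps, and the steroidogenic P450 enzymes receive its electrons through the ferredoxin system in mitochondria and through P450 oxidoreductase in the endoplasmic reticulum. In the cytosol it comes mainly from the oxidative pentose phosphate pathway, malic enzyme, isocitrate dehydrogenase, and the folate cycle, and in mitochondria from their mitochondrial relatives and from the transhydrogenase of the inner membrane. Ad4BP/SF-1 drives the genes of steroid synthesis, and cAMP is the second messenger through which luteinizing hormone stimulates Leydig cells.

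The DNA under the peaks that were found in both lists at *Me1*, the gene with the most shared peaks among the 10, is shown first, as 40 bases on either side of each copy of the Ad4BP/SF-1 consensus. The capitals mark the consensus YCAAGGYC (Y stands for C or T), searched on both strands. Each sequence is written 5′ to 3′ on the named strand of the RefSeq mouse genome GRCm38.p6, which is mm10.
*Me1*, intron 1, chr9:86685497-86685584, plus strand: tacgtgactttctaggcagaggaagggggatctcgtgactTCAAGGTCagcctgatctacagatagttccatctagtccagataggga
*Me1*, 13.1 kb upstream, chr9:86708986-86709073, plus strand: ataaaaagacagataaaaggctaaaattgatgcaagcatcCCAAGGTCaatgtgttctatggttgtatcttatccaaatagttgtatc
*Me1*, 21.4 kb upstream, first copy, chr9:86717132-86717219, plus strand: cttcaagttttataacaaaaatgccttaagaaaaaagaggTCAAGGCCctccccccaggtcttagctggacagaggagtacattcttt
*Me1*, 21.4 kb upstream, second copy, chr9:86717648-86717735, plus strand: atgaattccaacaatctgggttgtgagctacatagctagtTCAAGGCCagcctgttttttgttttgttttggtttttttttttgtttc
*Me1*, 29.2 kb upstream, chr9:86725156-86725243, minus strand: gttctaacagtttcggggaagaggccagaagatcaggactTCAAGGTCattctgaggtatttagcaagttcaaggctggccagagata

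Further sequences represent the start-site peak of *Me3*, the tandem copies in the highest-scoring *Me3* peak, the pair of copies in the *Mthfd1* peak with the higher score, and the only peak of *Idh1*. The *Me3* start-site sequence lies in the 5′ untranslated region of the principal transcript and is given with 10 bases on either side. The other 3 lie in introns.
*Me3*, start site, chr7:89632861-89632888, minus strand: cagggcgagaCCAAGGTCaggggtgccc
*Me3*, intron 4, chr7:89787894-89787981, minus strand: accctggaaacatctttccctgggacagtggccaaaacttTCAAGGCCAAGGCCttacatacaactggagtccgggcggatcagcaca
*Mthfd1*, intron 1, chr12:76270001-76270088, minus strand: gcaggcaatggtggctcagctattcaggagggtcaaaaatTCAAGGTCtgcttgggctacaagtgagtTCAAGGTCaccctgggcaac
*Idh1*, intron 1, chr1:65175588-65175675, plus strand: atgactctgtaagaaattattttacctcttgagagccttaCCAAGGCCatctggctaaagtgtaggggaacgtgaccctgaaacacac

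Among the 10 genes, 7 had a vehicle peak in their window (*Pgd*, *Taldo1*, *Tkt*, *Me1*, *Me3*, *Idh2*, and *Mthfd1*), where 36.7% of all protein-coding genes had one. In the cAMP list 3 genes had a peak (*Me1*, *Me3*, and *Idh1*), beside 28.8% of all protein-coding genes. *Me1* and *Me3* had peaks in both lists (22.5% of all genes), 8 of the genes had a peak in either list (43.1%), and *G6pdx* and *Nnt* had none. Thus the cAMP count was near the share of all genes and the vehicle count was above it. Peaks in the vehicle list alone were found at 5 of the genes, *Pgd*, *Taldo1*, *Tkt*, *Idh2*, and *Mthfd1* (14.3% of all genes), and *Idh1* alone had a peak only in the cAMP list (6.36%). The vehicle list is the longer one, and with the 4025 top-scoring peaks of each list 5 genes had a vehicle peak (29.4% of all genes) and 2 a peak in both (20%), so that *Pgd* and *Idh2* had none and 3 genes had a vehicle peak only (9.46%).

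The counts depended on the window. Within the gene body, 3 genes had a vehicle peak (*Me1*, *Me3*, and *Mthfd1*; 12.6% of all genes) and 3 a cAMP peak (*Me1*, *Me3*, and *Idh1*; 9.15%). With 10 kb on either side these were the same genes (19.3% and 13.9% of all genes). *Me1* and *Me3* were the 2 genes with peaks in both lists for the gene body (6.42%) and for 10 kb (10.1%), and 4 genes had one in either list (15.4% and 23.1%). With 20 kb on either side the vehicle list reached 5 genes (24.6% of all genes), whereas the cAMP list stayed at 3 (18.2%). With 100 kb, the same 8 genes had a peak in each list, where 49.4% and 41.3% of all genes had one. The peaks of *Pgd*, *Taldo1*, *Tkt*, and *Idh2* that set the vehicle count all lay outside the gene body. The peak nearest to the limit of the window on its inner side was a vehicle peak 49.2 kb from *Tkt*, with a score of 70.9, and the nearest on its outer side was a cAMP peak 54.5 kb from *Taldo1*, with a score of 51.0.

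**Figure D1:**
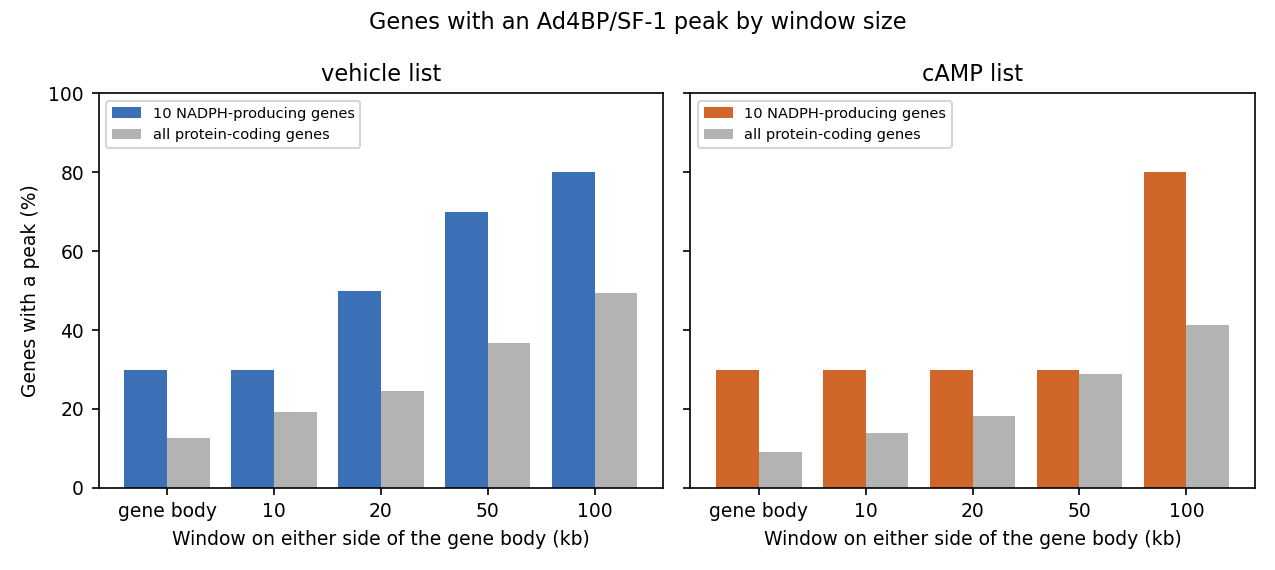
Share of genes with an Ad4BP/SF-1 peak (vertical axis, %) against the size of the window on either side of the gene body (horizontal axis, kb), for the vehicle list (left) and the cAMP list (right). Coloured bars stand for the 10 NADPH-producing genes and grey bars for all 21925 protein-coding genes. At 50 kb the coloured bar is 70% for vehicle and 30% for cAMP, and at 100 kb it is 80% in both.

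Each peak carries the score of MACS, the peak caller, a p-value for the peak written as 10 times its negative log10. The score rises with the depth of a library as well as with enrichment, and the lists hold no read numbers, so the depth is unknown and each score is given with its rank in its own list, in which rank 1 is the highest. The 15 vehicle peaks scored between 51.9 and 276.3, with a median of 87.5, beside a median of 72.4 over the whole list. The 8 cAMP peaks scored between 51.1 and 280.9, with a median of 72.1, beside 67.9 over the whole list. A score of at least 100 was reached by 5 of the 15 vehicle peaks, all at *Me1* and *Me3*, and by 26.6% of all vehicle peaks. In the cAMP list it was reached by 2 of the 8, both at *Me1*, and by 23.0% of all cAMP peaks.

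**Figure D2:**
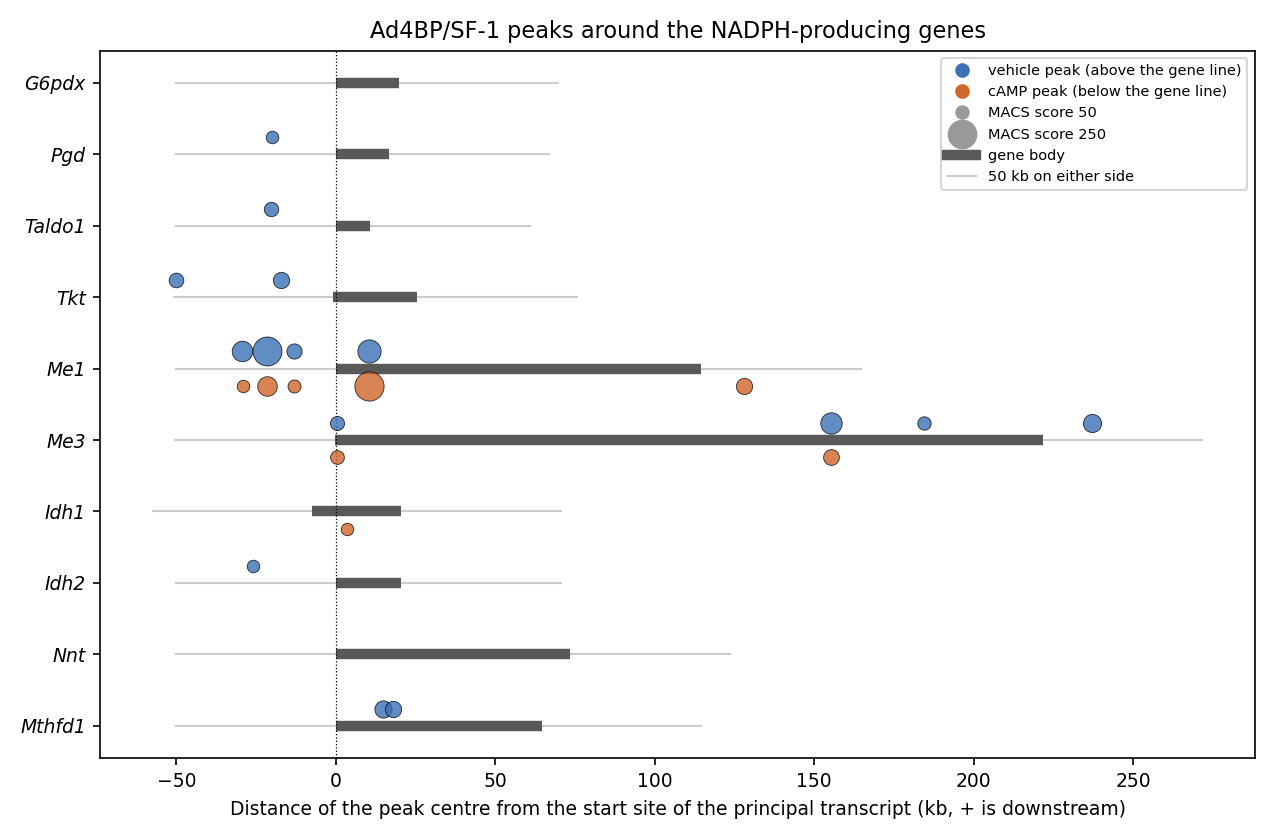
Positions of the peaks along the 10 genes. The horizontal axis gives the distance of the peak centre from the start site of the principal transcript (kb, with the gene running to the right), thick bars are gene bodies, thin lines the 50 kb on either side, blue circles above a line vehicle peaks and orange circles below it cAMP peaks, with an area proportional to the MACS score. *Me1* carried 4 vehicle and 5 cAMP peaks, *Me3* 4 and 2, and *G6pdx* and *Nnt* none.

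The first group, the pentose phosphate pathway, had 4 peaks, with scores from 51.9 to 87.5, each outside the gene body and each in the vehicle list only. *G6pdx* encodes glucose-6-phosphate dehydrogenase, the rate-limiting first enzyme and the main cytosolic source of NADPH in many cells. It lies at chrX:74409483-74429194, and its nearest peak was 407.8 kb away in each list, scoring 69.2 for vehicle and 65.0 for cAMP. The X chromosome as a whole held few peaks, 34 vehicle peaks and 23 cAMP peaks, or 0.208 and 0.141 peaks per Mb, and male cells carry a single X. Among the 948 X-linked protein-coding genes, 6.01% had a vehicle peak and 4.64% a cAMP peak in the same window, whereas 38.5% and 30.2% of the 20781 autosomal genes did. The absence of a called peak at *G6pdx* was therefore shared with most X-linked genes, and the part of the chromosome in it was not tested.

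*Pgd* encodes 6-phosphogluconate dehydrogenase, the other NADPH-yielding enzyme of the pathway. Its only peak, chr4:149186446-149186872, lay 19.95 kb upstream of its start site, inside intron 41 of *Kif1b*, whose own start site was nearer (11.8 kb). The score of 51.9 placed it at rank 5348 of 5721, close to the lowest score of the list. No cAMP peak lay within 64.3 kb of the gene.

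*Taldo1* and *Tkt* encode transaldolase and transketolase, which make no NADPH themselves but return pentose phosphates to glycolysis and so allow the oxidative steps to run on. The peak of *Taldo1*, chr7:141371714-141372173, was intergenic, 20.3 kb upstream of the start site, with a score of 68.4 (rank 3220). *Tkt* had 2 vehicle peaks. The intergenic one, chr14:30531736-30532347, lay 17.1 kb upstream with a score of 87.5 (rank 1948), and it was the only one of all these peaks without a copy of YCAAGGYC, which says only that these letters are not in it. The other, chr14:30498654-30499153, lay in intron 3 of *Dcp1a* with a score of 70.9 (rank 2988), and its nearest start site was that of *Cacna1d*, 7.75 kb away.

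The malic enzymes, which convert malate to pyruvate with the release of NADPH, held most of the peaks, 8 of the 15 for vehicle and 7 of the 8 for cAMP. Their windows were also the longest of the 10 genes, 214.6 kb for *Me1* and 322.0 kb for *Me3*. *Me1* encodes the cytosolic enzyme. It is transcribed from the minus strand at chr9:86581371-86695953, and its principal transcript *Me1-201* has 14 exons. In the vehicle list it had 4 peaks and in the cAMP list 5, and all 4 vehicle peaks overlapped a cAMP peak. A vehicle peak with such a counterpart was found at *Me1* and *Me3* only among the 10 genes, and at 19% of all genes.

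The intron 1 peak of *Me1* scored 177.7 in vehicle-treated cells (chr9:86685232-86685778, rank 423) and 280.9 in cAMP-treated cells (chr9:86685313-86685726, rank 55). Its centre lay 10.4 kb downstream of the *Me1-201* start site and 1.77 kb downstream of that of the transcript *Me1-202*, which starts inside the gene. This was the highest-scoring cAMP peak of the 10 genes. The peak 21.4 kb upstream had the highest vehicle score of the group, 276.3 (chr9:86716973-86717785, rank 126), and scored 125.9 in the cAMP list (chr9:86717090-86717718, rank 523).

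The peak 29.2 kb upstream of *Me1* scored 138.6 in the vehicle list (chr9:86725010-86725383, rank 748) and 52.0 in the cAMP list (chr9:86724900-86725378, rank 3637). The peak 13.1 kb upstream scored 75.7 (chr9:86708789-86709330, rank 2624) and 55.9 (chr9:86708903-86709305, rank 3112). The 3 upstream peaks therefore had lower scores and lower places in the cAMP list than in the vehicle list, and the intron 1 peak a higher score and place. All 3 were intergenic, and for the outermost the nearest protein-coding start site was that of *Prss35*, 18.5 kb away. The remaining cAMP peak, chr9:86567617-86568236, scored 87.3 (rank 1218), lay 13.1 kb beyond the 3′ end of *Me1* in intron 3 of *Pgm3*, and had no counterpart in the vehicle list.

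The 4 shared peaks at *Me1* spanned 40.2 kb, and the next peak beyond the window was 457 kb away in the vehicle list and 505.6 kb away in the cAMP list. At least 4 vehicle peaks with a counterpart were found at 50 protein-coding genes (0.228%), which made up 31 loci, and at least 5 cAMP peaks also at 50 genes (0.228%). At least 4 vehicle peaks were more frequent (2.64%). Long genes have larger windows, and in the class of the longest genes (2193 genes, the top of 10 equal classes) 0.547% had as many shared peaks as *Me1* and 5.88% as many vehicle peaks.

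*Me3* encodes the mitochondrial NADP-dependent malic enzyme and lies at chr7:89632392-89854359 on the plus strand. It had 4 vehicle peaks and 2 cAMP peaks, both of which overlapped a vehicle peak. At the start site, the vehicle peak chr7:89632696-89633216 scored 65.6 (rank 3467) and the cAMP peak chr7:89632766-89633132 scored 62.3 (rank 2399). The vehicle peak was centred 253 bp downstream of the start of *Me3-202*, in coding exon 1, and an antisense gene, *A230065N10Rik*, overlaps it. Its 65.8% of G and C was the highest of the 15 vehicle peaks.

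The other shared *Me3* peak lay in intron 4, 155 kb downstream of the start site, and scored 150.7 in the vehicle list (chr7:89787693-89788300, rank 615) and 81.9 in the cAMP list (chr7:89787716-89788144, rank 1375). It held 3 copies of the consensus, and TCAAGGCC and CCAAGGCC overlap in the tandem stretch shown above. The 2 vehicle peaks without a counterpart were one in intron 6 (chr7:89816755-89817191, score 59.0, rank 4248) and one 15.2 kb beyond the 3′ end in intron 13 of *Ccdc81* (chr7:89869576-89870116, score 109.5, rank 1277). At least 2 vehicle peaks with a counterpart were found at 4.01% of all genes, and in the longest class of genes 6.52% had as many shared peaks as *Me3*.

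The isocitrate dehydrogenases had 1 low-scoring peak each, in different lists. *Idh1* encodes the cytosolic and peroxisomal NADP-dependent enzyme. Its cAMP peak, chr1:65175486-65175834, scored 51.1 and stood at rank 3798 of 4025. It was in intron 1 of *Idh1-201*, 3.52 kb from that start site and 96 bp from the start of *Idh1-202*, and 10.8 kb from the outermost start site of the gene. The nearest vehicle peak was 67.7 kb from the gene.

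*Idh2* encodes the mitochondrial enzyme, and its vehicle peak, chr7:80141286-80141681, was intergenic, 26.1 kb upstream, with a score of 52.2 (rank 5301). No cAMP peak lay within 81.6 kb of the gene. At scores this close to the lowest in a list, 17.0% of vehicle peaks and 28.9% of cAMP peaks between 50 and 60 had a counterpart, so that presence in one list only was the usual state of such peaks.

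*Nnt* encodes the nicotinamide nucleotide transhydrogenase, which uses the proton gradient of the inner mitochondrial membrane to make NADPH. It spans chr13:119335448-119408997, and its nearest peaks were 410.8 kb away in the vehicle list and 1910 kb away in the cAMP list. The C57BL/6J strain behind the reference genome lacks an internal stretch of this gene, so reads from that stretch, in mice that carry it, have no place in mm10. The *Nnt* sequence of the ICR mice was not examined, and the part of this stretch in the lack of peaks was not tested. The window held 23 copies of the consensus and that of *G6pdx* 26, none of them in a peak.

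*Mthfd1* encodes the cytosolic trifunctional folate enzyme, whose dehydrogenase activity yields NADPH. It had 2 vehicle peaks, both inside the gene. The intron 1 peak, chr12:76269734-76270385, scored 97.95 (rank 1583) and was centred 14.8 kb downstream of the start site. The intron 2 peak, chr12:76273069-76273572, scored 88.0 (rank 1919). In the cAMP list the nearest peak was 74.2 kb from the gene, and among the 7 genes without a cAMP peak *Mthfd1* had the highest vehicle score.

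**Figure D3:**
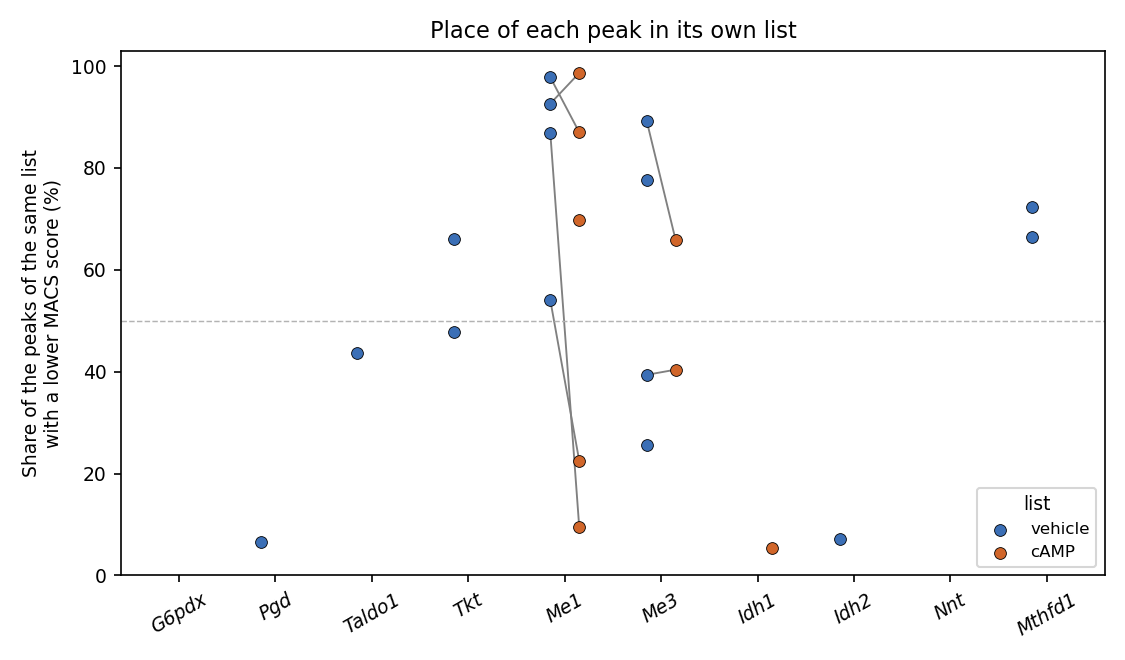
Place of each peak in its own list. The vertical axis gives the share of the peaks of the same list with a lower MACS score (%), points are single peaks of the vehicle (blue) and cAMP (orange) lists, grey lines join peaks that overlap, and the dashed line marks the middle of the list. The *Me1* intron 1 peak stood above 92.6% of the vehicle list and 98.6% of the cAMP list, and the *Me1* peak 29.2 kb upstream above 86.9% and 9.54%.

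Peaks that shared at least 1 bp were taken as counterparts. Of the 15 vehicle peaks 6 had a counterpart, or 40% (95% exact Clopper-Pearson interval 16.3% to 67.7%), beside 37.9% of all vehicle peaks. Of the 8 cAMP peaks 6 had one, or 75% (34.9% to 96.8%), beside 53.8% of all cAMP peaks. Both shares of the whole lists lay inside these intervals, which cover counting error only. *Me1* held 4 of the 6 pairs, and without its peaks 2 of 11 vehicle peaks (18.2%) and 2 of 3 cAMP peaks (66.7%) had a counterpart.

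Counterparts were more frequent among high scores throughout the lists. Of all vehicle peaks that scored at least 150, 83.5% had a counterpart, and all 3 such peaks of the NADPH-producing genes did. The 6 vehicle peaks with a counterpart scored between 65.6 and 276.3, and the 9 without one between 51.9 and 109.5, so the ranges overlapped.

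The ratio of the cAMP score to the vehicle score was compared over the 2156 pairs in which each peak overlapped 1 peak of the other list. Its median was 0.880, and 38.9% of the pairs had a ratio above 1. Of the 6 pairs at *Me1* and *Me3*, 5 had a ratio below 1. At *Me1*, the ratio was 1.58 in intron 1, above 90.6% of all pairs.

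The other *Me1* ratios were 0.739 at 13.1 kb, 0.456 at 21.4 kb, and 0.375 at 29.2 kb upstream, the last above only 4.31% of all pairs. At *Me3* they were 0.949 at the start site and 0.544 in intron 4. The quartiles of all pairs were 0.632 and 1.19, so that 1 pair of *Me1* stood above them, 1 between them, and 2 below. With 1 library for each condition, differences in depth, immunoprecipitation, and treatment cannot be told apart in these ratios.

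**Figure D4:**
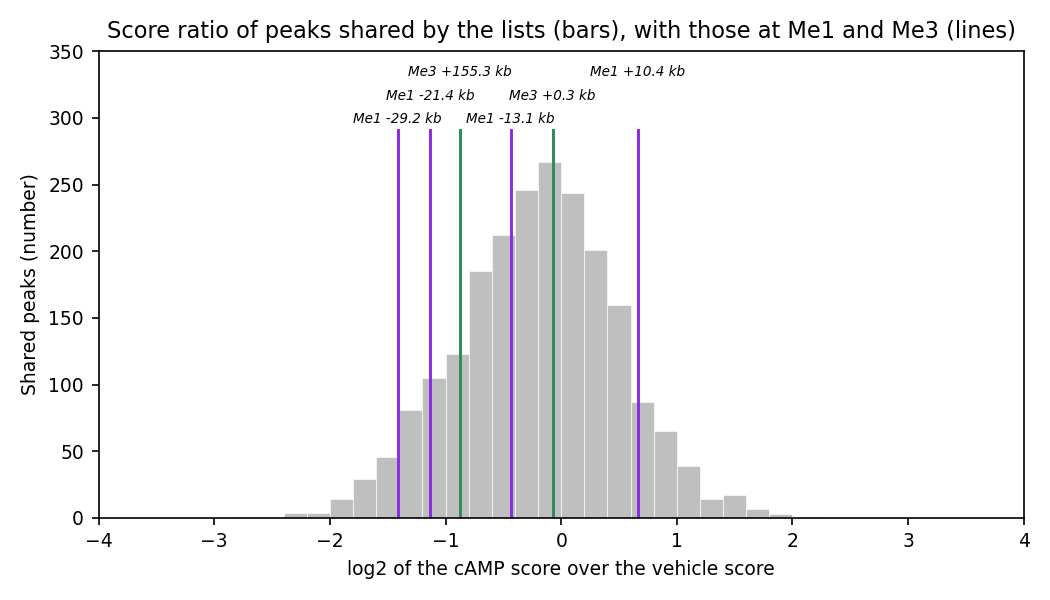
Log2 of the cAMP score over the vehicle score (horizontal axis) for 2156 peaks shared by the lists (grey bars, number of peaks on the vertical axis), with vertical lines at the 4 pairs of *Me1* (purple) and the 2 of *Me3* (green), each named by its distance from the start site of the principal transcript. The *Me1* intron 1 pair, at 0.66, is the only one to the right of 0, and the *Me1* pair 29.2 kb upstream, at -1.41, is the farthest to the left.

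The consensus YCAAGGYC was found in 14 of the 15 vehicle peaks, or 93.3% (68.1% to 99.8%), beside 80.4% of all vehicle peaks, and in 8 of the 8 cAMP peaks (63.1% to 100%), beside 77.1% of all cAMP peaks. The shorter CAAGGYC was in the same numbers of peaks, 14 and 8 (83.8% and 80% of all peaks). More than 1 copy of YCAAGGYC was found in 3 of the vehicle peaks (20.8% of all), at *Me1*, *Me3*, and *Mthfd1*, and in 2 of the cAMP peaks (19.4%), at *Me1* and *Me3*. Counted once each, the peaks of both lists held 20 copies, 7 of TCAAGGTC, 6 of TCAAGGCC, 4 of CCAAGGTC, and 3 of CCAAGGCC. At *Me1* and *Me3*, every copy in a shared peak was present in the counterpart as well. The copies were close to the peak centres at several places, such as 4 bp from the centre of the vehicle peak 29.2 kb upstream of *Me1* and 14 bp from the centre of each *Mthfd1* peak, but 203 and 313 bp from the centre of the vehicle peak 21.4 kb upstream of *Me1*.

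The windows of the 10 genes together held 420 copies of the consensus, of which 18 (4.29%) were in a vehicle peak and 11 (2.62%) in a cAMP peak. Most copies near these genes were therefore not in a called peak. Over chromosomes 1-19, X, and Y, 1.24% of the 487156 copies were in a vehicle peak and 0.831% in a cAMP peak. These shares count all sequence, not windows around genes, so they are not a like comparison. At *Me1*, 5 copies were in a vehicle peak and 6 in a cAMP peak, and at *Me3* 6 and 4. Of the 20 copies in peaks, 8 (40%) lay in sequence that the reference genome masks as repeated, beside 38.1% of all copies of the genome. They included the copies at *Pgd*, *Taldo1*, *Idh2*, and *Tkt* and the one in intron 1 of *Me1*. The full cAMP response element TGACGTCA, the site of the CREB factors, was in none of the 15 vehicle and 8 cAMP peaks, and in 0.699% and 0.770% of all peaks.

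Distances to start sites were compared next. Of the 15 vehicle peaks, 12 were centred over 10 kb from any protein-coding start site, beside 59.3% of all vehicle peaks, and 1 was within 1 kb (10.7%). Of the 8 cAMP peaks, 4 were over 10 kb away (61.3%) and 2 within 1 kb, those of *Me3* and *Idh1* (8.70%). The exact intervals of the shares over 10 kb away, 51.9% to 95.7% for vehicle and 15.7% to 84.3% for cAMP, held the shares of the whole lists. They treat peaks as independent, which peaks of the same gene and peaks shared by the lists are not. The nearest start site was that of the assigned gene for 9 vehicle and 5 cAMP peaks, and for the others the assignment by window names a gene that was not the nearest.

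Promoter sequences of RefSeq, 300 bases around each start, were matched for 9 of the 10 genes, which had 12 promoters. None of the 12 held YCAAGGYC, which was in 5.73% of 32851 promoters, and the *Taldo1* promoter and 1 of the 2 *Pgd* promoters held the shorter CAAGGYC (9.88% of all). Only the *Me3* promoter, chr7:89632568-89632867, was overlapped by a peak, in both lists. The copy shown above, at chr7:89632871-89632878, lay just beyond its downstream end.

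Other genes of the same pathways were described from lists. Of 7 further pentose phosphate genes, 1 had a peak in each list, beside 36.7% of all genes for vehicle and 28.8% for cAMP. It was *H6pd*, the enzyme of the endoplasmic reticulum that makes NADPH from glucose 6-phosphate there. *H6pd* had 6 vehicle peaks and 4 cAMP peaks, of which 3 vehicle peaks had a counterpart. Its highest vehicle peak, chr4:149998823-149999432 in intron 1, scored 198.2 (rank 309) and had no counterpart. Another peak of intron 1 was shared and scored 56.7 for vehicle (rank 4564) and 95.1 for cAMP (rank 1025). In the vehicle list it was centred 1.07 kb downstream of the *H6pd* start site. The highest shared pair, with scores of 107.7 and 110.1, was nearest to the start site of *Spsb1*.

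Of 7 further folate cycle genes, 4 had a vehicle peak (*Mthfd2*, *Aldh1l1*, *Shmt1*, and *Shmt2*) and 3 a cAMP peak (all of these but *Mthfd2*), beside 36.7% and 28.8% of all genes. The peaks at *Shmt1* and *Shmt2* were all nearer to the start sites of other genes, *Top3a* at *Shmt1* and *Stac3* or *Lrp1* at *Shmt2*. *Aldh1l1* encodes the cytosolic 10-formyltetrahydrofolate dehydrogenase, which also yields NADPH, and its intron 1 peak scored 226.4 in the vehicle list (chr6:90553161-90553558, rank 213) and 61.6 in the cAMP list (chr6:90553169-90553662, rank 2460). The highest cAMP peak in its window was another one, chr6:90507563-90507914, with a score of 89.8 (rank 1143). That peak had no counterpart and was nearest to the start site of another gene. Of 4 relatives that use NAD in place of NADP, or can, 1 had a peak in each list (36.7% and 28.8% of all genes), *Idh3a*, a subunit of the NAD-dependent isocitrate dehydrogenase of the citric acid cycle. It had 5 vehicle and 2 cAMP peaks. Its start-site peak scored 85.8 for vehicle and 72.1 for cAMP, and its highest pair, 283.8 and 190.2, was nearest to the start site of *Acsbg1*.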

How the data were processed

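Ad4BP/SF-1 ChIP-seq was performed on vehicle-treated and cAMP-treated mouse Leydig cells, with 1 library per condition. The authors mapped reads to mm10 with Bowtie (0.12.8 per the submitters' processing notes), allowed 3 mismatches, kept uniquely mapped reads, and called peaks with MACS. The deposited lists hold positions and the MACS score of each peak. The stated p threshold was 0.001, whereas the lowest deposited score corresponds to 1e-05. Whether the input served as the control is not given in the sources used here. Leaving out reads with several positions can remove peaks in repeated sequence.

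Genes were those of GENCODE M21, and the 2 entries of *Nnt* were joined. Overlaps, ranks, and consensus copies were computed with Python 3.11.15 and numpy 2.4.6, after the functions were tested on simulated data. The count of overlapping peaks, 2167 in each list, was checked with bedtools 2.31.1. Exact Clopper-Pearson intervals (95%) came from scipy 1.17.1, and plots from matplotlib 3.10.9. Coordinates count from 1. No test was made. The depth is unknown. The genes and lists were chosen with earlier results of these data known, and genes were named as members, as genes nearest to or holding their peaks, or as listed pathway genes with a peak. *A230065N10Rik*, *Top3a*, *Stac3*, *Lrp1*, *Slc35e2*, *Spsb1*, *Acsbg1*, and *Fads6* were named after their positions had been seen. Alternatives changed the window, the assignment, the lowest score, the list length, the overlap rule, and the consensus, and the alternative without *Me1* was chosen after seeing the data. Lists of markers covered Leydig, Sertoli, and germ cells and macrophages. One listed gene is not reported here and was left out of the counts.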

Additional observations from a re-analysis of the deposited data

How the results depend on the processing

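No paired analysis was possible because each condition had 1 library, and no library could be left out. With the gene body alone, and with 10 kb on either side, 3 genes had a vehicle peak and 4 a peak in either list, over 6 vehicle and 4 cAMP peaks. With 100 kb, 8 genes had a cAMP peak (41.3% of all genes) and 8 a peak in both lists (34.0%), over 24 vehicle and 14 cAMP peaks. Keeping peaks nearest to the start site of the assigned gene left 9 vehicle and 5 cAMP peaks. With scores of at least 75, 4 genes had a vehicle peak (22.4% of all genes) and 4 a peak in either list (25.9%), over 9 and 4 peaks. With scores of at least 100, 2 genes had a vehicle peak (14.6% of all genes), 1 a cAMP peak (9.12%), 1 a peak in both lists (6.70%) and 2 in either (17.0%), over 5 and 2 peaks, the consensus share of the vehicle peaks was 100% (5 of 5), and the counterpart share of the cAMP peaks was 100% (2 of 2). The moves of the counts follow from the number of peaks that each setting admits. The other 44 values were counts that moved by at most 1.5 times or shares that stayed inside their interval. With 15 and 8 peaks the intervals are wide, and the lack of a called peak is no evidence that Ad4BP/SF-1 was absent there.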

Other observations

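Genes that carry electrons from NADPH to the steroidogenic P450 enzymes were also described, from a list of 4 of which 3 were in the annotation under the symbol used, and all 3 had a peak in both lists, as 22.5% of all protein-coding genes did. *Por*, the oxidoreductase of the endoplasmic reticulum, had an intron 1 peak that scored 180.5 in the vehicle list (chr5:135690125-135690761, rank 413) and 101.5 in the cAMP list (chr5:135690183-135690835, rank 899). *Fdxr*, the mitochondrial ferredoxin reductase, had a peak 15.6 kb upstream that scored 199.8 in the vehicle list (rank 300) and 435.5 in the cAMP list (chr11:115292384-115293018, rank 18), and its nearest start site was that of *Fads6*. A shared peak in intron 2, nearest to the start site of *Fdxr* itself, scored 95.1 for vehicle (rank 1668) and 91.4 for cAMP (rank 1109). *Fdx1*, ferredoxin, had a start-site peak in each list, with scores of 76.7 for vehicle and 52.8 for cAMP. Its highest peak, in intron 2, was in the cAMP list only and scored 99.5 (rank 936). Of the 2 NAD kinases, which supply NADP, *Nadk* had 2 vehicle and 3 cAMP peaks, the highest scoring 131.9 and 191.2. That peak and all the cAMP peaks were nearest to the start site of *Slc35e2*. The other vehicle peak, chr4:155561564-155562231, scored 67.9 (rank 3268) and had no counterpart. It was centred 0.481 kb upstream of the start site of *Nadk* itself. The mitochondrial *Nadk2* had no peak.

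Peaks do not measure expression, so the cell type could not be checked by marker levels. Of 7 Leydig cell markers, 4 had a vehicle peak and 3 a cAMP peak within 50 kb, of 5 Sertoli cell markers 2 and 1, of 5 germ cell markers 1 and 1, and of 4 macrophage markers 1 and 1. Of all protein-coding genes, 36.7% had a vehicle peak and 28.8% a cAMP peak in this window.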
